A study of Mus musculus with 2 samples.

Results

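The genes described here are the enzymes that write, copy and remove cytosine methylation in DNA, with Gadd45a, a stress response gene whose product has been linked to demethylation. They are 8 genes, picked by symbol from the 27998 genes counted in each library: Dnmt1, Dnmt3a, Dnmt3b, Tet1, Tet2, Tet3, Tdg and Gadd45a. Their unique molecular identifiers (UMIs, each standing for 1 captured transcript) were summed over the cells of each deposited cell type and, within the erythroid lineage, over each of the subclusters Ery 1 to Ery 6.

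Methyl groups on DNA sit mainly on the cytosine of CpG dinucleotides. DNMT3A and DNMT3B place them on unmethylated DNA, and DNMT1 copies them to the new strand after replication, brought there by UHRF1. TET1, TET2 and TET3 oxidise the methyl group, TDG cuts out the oxidised base, and base excision repair fills in an unmodified cytosine. Erythroid maturation in the mouse fetal liver is known for a genome-wide loss of DNA methylation. The data hold transcripts only, and neither methylation nor enzyme activity was measured.

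Both libraries came from wild-type C57BL/6 (C57BL/6J in the study's methods) mouse liver at E12.5, sorted to remove debris, dead cells and doublets, and captured in droplets on the 10x Genomics platform. The sample protocol describes technical replicates of 1 liver, so the intervals below are exact 95% intervals for counting error only, and no p-value between animals could be obtained. The table of cell labels kept 5480 cells in library 1, with 51969226 UMIs and a median of 6261 per cell, and 5057 cells in library 2, with 62738015 UMIs and a median of 9774. Its 9 cell types were HPSC (hematopoietic stem and progenitor cells), Ery (erythroid progenitors, subclusters Ery 1 and Ery 2), Eryb (erythroblasts, subclusters Ery 3 to Ery 6), EryP (primitive erythroblasts), Mk (megakaryocytes), G (granulocytic cells), Mo/KC (monocytes and Kupffer cells), Hepa (hepatoblasts) and EC (endothelial cells). The libraries shared 31 cell barcodes. The kept cell with the fewest UMIs had 504 in library 1 and 4387 in library 2. Cells below 4387 UMIs were thus in library 1 only, and the part of this in differences between the libraries was not tested.

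HPSC held 213 cells in library 1 and 208 in library 2, at median depths of 16053 and 14956 UMIs, and Ery 6 held 1218 and 1176 cells at 4378 and 7882.5 UMIs. Ery 1 was the deepest erythroid subcluster, at medians of 26146 and 25977 UMIs, and values per cell are not adjusted for depth. The progenitor markers Myb, Kit, Cd34 and Gata2 summed to 599 and 560 CPM (the UMIs of a gene over all UMIs of the cells, scaled to 1000000) in HPSC and to 5.97 and 2.42 CPM in Ery 6. The G markers Mpo, Elane, Ly6g and Ngp summed to 752 and 734 CPM in HPSC and to 44.97 and 16.5 CPM in Ery 6. Nearly all of the sum in HPSC was Mpo, a granule enzyme gene, with Elane and Ngp at 9.86 CPM or less and Ly6g at 0. The EryP markers Hba-x, Hbb-y and Hbb-bh1, which are embryonic globin genes, summed to 622 and 1869 CPM in HPSC and to 10710 and 5910 CPM in Ery 6. Most of the sum in Ery 6 was Hbb-bh1, while in library 2 Hba-x (188 against 46.8 CPM) and Hbb-y (1394 against 414 CPM) were higher in HPSC. The part of these markers in the results was not tested. Transcripts of 10 hemoglobin genes made up 1.59% and 2.94% of the UMIs of HPSC but 58.1% and 78.5% of those of Ery 6. Since hemoglobin takes up so much of a late cell's UMIs, each change is given as CPM, as CPM with the hemoglobin genes taken out of the total, and as UMIs per cell.

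Because CpG dinucleotides are what these enzymes act on, the bases before a listed start are shown for 3 of the genes, with each CpG in capitals. They are Gadd45a, which was higher in Ery 6, Dnmt3b, which had the most UMIs of the 8 in HPSC, and Dnmt1, which tracked S phase transcripts in some subclusters. The sequences are from RefSeq on GRCm38.p6 and cover the 250 bases before the start: chr6:67037408-67037657 on the minus strand for Gadd45a, chr2:153649199-153649448 on the plus strand for Dnmt3b, and chr9:20952624-20952873 on the minus strand for the third of the starts listed for Dnmt1. The other starts listed for Dnmt1 lie upstream of that stretch, with stretches of their own at chr9:20959889-20960138 and chr9:20952980-20953229. The Dnmt1 bases shown thus lie inside the gene, so they may include transcribed bases and are not a promoter alone.
Gadd45a: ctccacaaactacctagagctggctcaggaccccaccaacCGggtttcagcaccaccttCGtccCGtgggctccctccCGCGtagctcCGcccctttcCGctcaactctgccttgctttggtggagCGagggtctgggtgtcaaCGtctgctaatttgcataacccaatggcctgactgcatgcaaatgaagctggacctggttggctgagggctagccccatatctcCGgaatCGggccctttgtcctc
Dnmt3b: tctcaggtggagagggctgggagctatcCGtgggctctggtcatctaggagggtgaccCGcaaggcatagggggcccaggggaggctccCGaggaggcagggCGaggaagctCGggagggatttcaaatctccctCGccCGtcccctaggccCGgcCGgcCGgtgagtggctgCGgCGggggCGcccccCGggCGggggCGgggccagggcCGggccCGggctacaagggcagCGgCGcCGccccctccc
Dnmt1: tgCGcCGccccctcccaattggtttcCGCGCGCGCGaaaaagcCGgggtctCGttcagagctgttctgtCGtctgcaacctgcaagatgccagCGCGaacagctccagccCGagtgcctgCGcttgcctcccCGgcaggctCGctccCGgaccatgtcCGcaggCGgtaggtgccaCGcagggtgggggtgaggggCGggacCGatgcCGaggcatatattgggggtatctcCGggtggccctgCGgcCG

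The stretches held 11 CpGs for Gadd45a, 21 for Dnmt3b and 26 for Dnmt1. Over windows that also take in the 50 bases after the start, the median of all 32851 RefSeq windows was 7 CpGs, and the windows held 14 for Gadd45a, 30 for Dnmt3b, 57 for Tet2, 22 for Tet3, 17 for Tet1 and 26 for Tdg. Dnmt3a had starts with 46, 47 and 18 CpGs, and Dnmt1 had starts with 2, 12 and 33. The Tet2 window had more CpGs than 99.9% of all windows, while that of Gadd45a had more than 63.7%. The letters TTTCCCGC, TTTCGCGC, TTTGCCGC and TTTGGCGC, the core of the E2F motif, were searched for on both strands. They occurred in 2.26% of all windows and, among the 12 windows of the 8 genes, in the third Dnmt1 window alone, as GCGCGAAA beginning 219 bases before the start and as TTTGGCGC beginning at base 34 of the transcript. A match of letters does not show that a factor binds there, and counts of transcripts do not tell which start was used. The searched letters each hold a CpG, and their share was not taken over windows with as many CpGs.

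From HPSC to Ery 6, 7 of the 8 genes were lower and Gadd45a alone was higher, where a gene is called when its CPM differed at least 2-fold in the same direction in both libraries. That count has to be read against all 8609 genes with at least 20 UMIs in HPSC and Ery 6 together in each library, of which 77.1% were lower and 5.82% were higher by the same rule. Lower CPM was therefore what most genes showed, and higher CPM was uncommon. With the hemoglobin genes taken out, 6 of the 8 were lower and 1 was higher, against 54.7% and 14.6% of all genes tested, and Dnmt1 was the gene that no longer passed.

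The 8 genes fell into 3 patterns relative to all genes tested, whose median log2 ratio of Ery 6 to HPSC was -3.05 in CPM, -1.43 without hemoglobin and -4.45 per cell. Dnmt1, Tet3 and Tdg lay close to those medians, with log2 ratios in CPM of -2.65, -2.97 and -3.24. Dnmt3b and Tet1 lay below them, at -7.82 and -5.36. So did Dnmt3a and Tet2, at -6.25 and -5.58 in library 1. Both had 0 UMIs in Ery 6 of library 2, where 3 counts in place of the 0 gave -7.44 and -4.66. Gadd45a lay above them, at 5.14. For Tet1 and Tet2 the place below the median rests on few UMIs in Ery 6, 2 and 1 for Tet1 and 1 and 0 for Tet2. In library 1 their intervals began at 6.96-fold and 7.94-fold lower than HPSC, which reaches the median ratio of all genes in the mean of both libraries. In library 2 they began at 14.7-fold and 19.1-fold. No median was taken for each library alone, so these intervals have no median of their own library beside them. Of the 8609 genes, 96 had a lower ratio than Dnmt3b and 30 a higher one than Gadd45a, while 3647 had a higher ratio than Dnmt1 and 4961 a lower one.

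**Figure D1:**
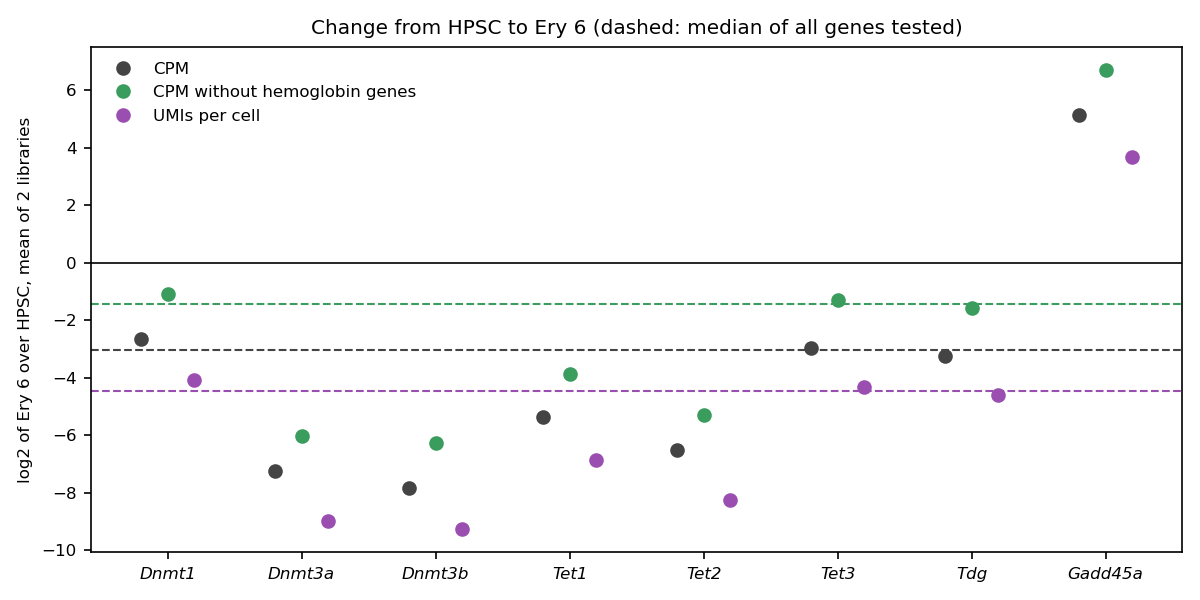
The log2 ratio of Ery 6 to HPSC is plotted for each gene from the mean of the 2 libraries as CPM (grey), CPM without the hemoglobin genes (green) and UMIs per cell (purple), with the median of all 8609 genes tested on the same scale as a dashed line. The 0 of Dnmt3a and Tet2 in Ery 6 of library 2 enters the mean as 0, so their points are not bounds. Dnmt1, Tet3 and Tdg sit near the dashed lines, Dnmt3a and Dnmt3b sit well below them, and Gadd45a sits above 0 on all of them.

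Dnmt1, the maintenance methyltransferase gene (GRCm38, as for all positions here, chr9:20907209-20959888, minus strand), stayed within 2-fold of its HPSC level in CPM through Ery 4 and was low in Ery 6. In library 1 its level was 83.8 CPM in HPSC, then 67.4, 63.8, 93.2, 70.8 and 47.9 CPM in Ery 1 to Ery 5, and 17.9 CPM in Ery 6. In library 2 it was 75.8 CPM in HPSC, then 65.9, 53.9, 65.5, 44.4 and 28.0 CPM, and 7.47 CPM in Ery 6. Both libraries thus had a second high point at Ery 3, the first of the erythroblast subclusters. The step from Ery 2 to Ery 3 was 1.46-fold up in library 1 (95% interval 1.31 to 1.63) and 1.22-fold in library 2 (1.07 to 1.38), and it was 1.68-fold and 1.57-fold without hemoglobin. Per cell that step was not up, at 0.91 (0.82 to 1.02) and 0.81 (0.72 to 0.92).

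Ery 6 was 4.68-fold lower than HPSC in Dnmt1 CPM in library 1 (3.72 to 5.92) and 10.2-fold lower in library 2 (7.79 to 13.4). Much of the gap between the libraries went with hemoglobin: without it, Dnmt1 was at 85.1 and 78.1 CPM in HPSC, 111 and 104 CPM in Ery 4, 98.2 and 105 CPM in Ery 5, and 42.7 and 34.7 CPM in Ery 6. On that scale the values of Ery 3, Ery 4 and Ery 5 were above that of HPSC in both libraries, and the only step called down was from Ery 5 to Ery 6, to 0.44 of its level in library 1 (0.33 to 0.57) and 0.33 in library 2 (0.25 to 0.44). Per cell, by contrast, Dnmt1 was highest in Ery 1, with 1.77 and 1.70 UMIs, against 1.36 and 1.14 in HPSC and 0.0837 and 0.0629 in Ery 6. The scale therefore decides whether Dnmt1 looks high or low in Ery 3 to Ery 5, but Ery 6 was below HPSC and below Ery 5 on all 3 scales.

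Along the erythroid course, Dnmt3b (chr2:153649450-153687730, plus strand) and Dnmt3a (chr12:3806007-3914443, plus strand), the genes of the de novo methyltransferases, were highest in HPSC and nearly gone by the first erythroblasts. Outside that course, Dnmt3a in Mk was above HPSC in library 1 and overlapped it in library 2, as given below. Dnmt3b was at 173 and 156 CPM in HPSC in libraries 1 and 2, at 28.0 and 26.1 CPM in Ery 1, at 3.81 and 5.17 CPM in Ery 2, and at no more than 2.05 CPM in any of Ery 3 to Ery 6. Dnmt3a was at 53.3 and 52.5 CPM in HPSC, 14.9 and 13.2 CPM in Ery 1, 3.05 and 3.68 CPM in Ery 2, and at no more than 1.47 CPM later. The intervals of the libraries overlapped in each of these populations, and HPSC did not overlap with any erythroid subcluster in either gene.

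The first step, from HPSC to Ery 1, took Dnmt3b to 0.16 (0.14 to 0.19) of its level in library 1 and 0.17 (0.14 to 0.19) in library 2, and took Dnmt3a to 0.28 (0.22 to 0.35) and 0.25 (0.20 to 0.32). Further steps down followed from Ery 1 to Ery 2 and from Ery 2 to Ery 3 in both genes in CPM. In Ery 6, Dnmt3b had 6 UMIs in library 1 and 4 in library 2, against 596 and 489 in HPSC, which made it 164-fold lower (74.9 to 449) and 388-fold lower (150 to 1428). Dnmt3a had 4 UMIs in Ery 6 in library 1, against 184 in HPSC, a 75.9-fold difference (29.2 to 282). In library 2 it had 0 UMIs against 164, which is 173-fold lower with the 0 set to 3 counts. The interval, taken with the 0 itself, began at 139-fold. At such counts the level in Ery 6 cannot be told from a low background.

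Across cells, Dnmt3b was found in 86.4% of HPSC in library 1 and 78.4% in library 2, and in 0.49% and 0.34% of Ery 6 cells. With every cell thinned to 3600 UMIs, which leaves out 237 of the Ery 6 cells of library 1, the shares were 45.3% and 39.6% in HPSC and 0.47% and 0.14% in Ery 6. The direction was thus the same at equal total depth, though hemoglobin takes up more of the thinned UMIs in Ery 6 than in HPSC.

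**Figure D2:**
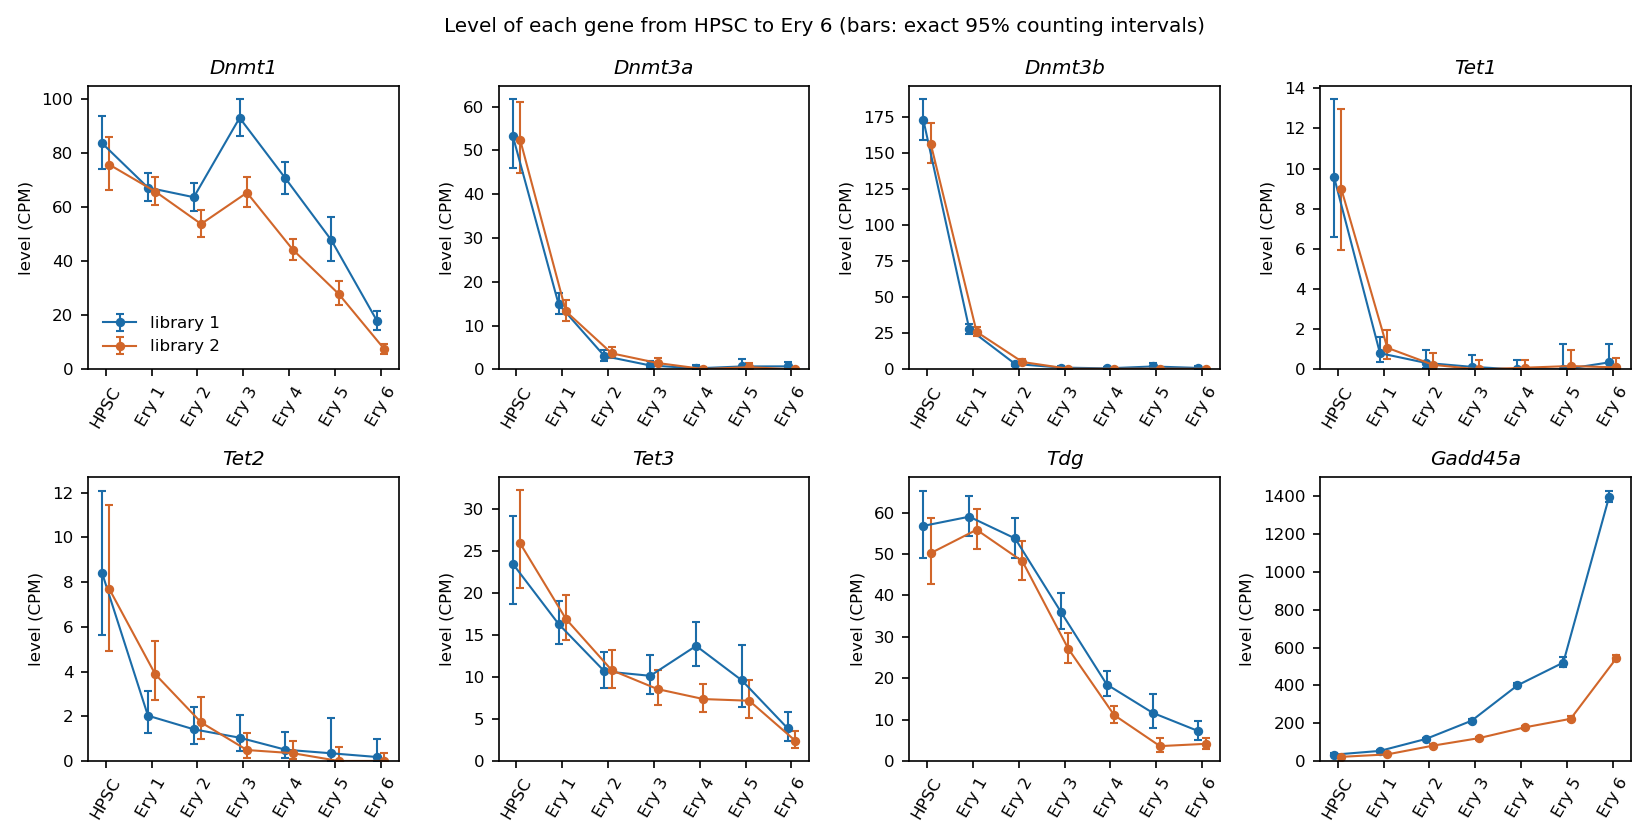
CPM of each gene (vertical axes, each with its own scale from 0) is plotted from HPSC to Ery 6 for library 1 (blue) and library 2 (orange), with bars for the exact 95% counting interval. Dnmt3a, Dnmt3b, Tet1 and Tet2 drop between HPSC and Ery 2, Dnmt1 has a second high point at Ery 3, Tdg drops from Ery 3 on, and Gadd45a climbs to 1398 and 544 CPM in Ery 6.

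Among the TET genes, Tet1 and Tet2 had 2 UMIs or fewer in Ery 6 of either library, and Tet3 had 22 and 24. Tet1 (chr10:62804570-62908996, minus strand) was scarce, with 9.57 and 8.96 CPM in HPSC from 33 and 28 UMIs, and 0.81 and 1.08 CPM in Ery 1. Only the step from HPSC to Ery 1 was called for it, to 0.08 of its level in library 1 (0.03 to 0.19) and 0.12 in library 2 (0.05 to 0.25). Ery 6 held 2 UMIs and 1 UMI of Tet1, a 27.2-fold (6.96 to 234) and 88.8-fold (14.7 to 3630) difference whose intervals are wide. Of all Tet1 UMIs in the libraries, 61 of 108 were in HPSC, although HPSC made up 421 of 10537 cells.

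Tet2 (chr3:133463679-133545139, minus strand) was at 8.41 and 7.68 CPM in HPSC, 2.03 and 3.88 CPM in Ery 1 and 1.42 and 1.72 CPM in Ery 2. Its step from HPSC to Ery 1 went to 0.24 of its level in library 1 (0.13 to 0.44) and to 0.50 in library 2 (0.29 to 0.88). Per cell the libraries differed in that step, at 0.39 (0.21 to 0.72) and 0.87 (0.50 to 1.52). Ery 6 held 1 UMI of Tet2 in library 1, against 29 in HPSC, and 0 in library 2, against 24, so that it was 47.9-fold lower (7.94 to 1955) in library 1. In library 2 it was 25.4-fold lower with the 0 set to 3 counts, and the interval, taken with the 0 itself, began at 19.1-fold. Unlike Tet1, Tet2 was as high or higher in the myeloid cells G and Mo/KC than in HPSC.

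Tet3 (chr6:83362373-83459084, minus strand) was the TET gene with the most UMIs both in HPSC and in Ery 6, though it too was lower in Ery 6. In library 1 it was at 23.5 CPM in HPSC, then 16.3, 10.7, 10.1, 13.7 and 9.59 CPM in Ery 1 to Ery 5, and 3.86 CPM in Ery 6. In library 2 it was at 25.9 CPM, then 16.9, 10.8, 8.55, 7.37 and 7.17 CPM, and 2.42 CPM in Ery 6. Without hemoglobin it was higher in Ery 4 than in Ery 3 in both libraries, 1.79-fold (1.33 to 2.43) and 1.44-fold (1.04 to 2.00), and stepped down from Ery 5 to Ery 6. Ery 6 was 6.08-fold below HPSC in CPM in library 1 (3.75 to 10.2) and 10.7-fold below in library 2 (6.71 to 17.7).

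Tdg (chr10:82629828-82650799, plus strand), which encodes the glycosylase that removes oxidised methylcytosine, had no step down in CPM called in both libraries before Ery 3, and was lower from there on. In library 1 it was at 56.8 CPM in HPSC, 59.0 and 53.8 CPM in Ery 1 and Ery 2, and 36.0, 18.5, 11.6 and 7.20 CPM in Ery 3 to Ery 6. In library 2 it was at 50.2 CPM, then 55.9 and 48.3 CPM, then 27.1, 11.1, 3.58 and 4.14 CPM. From Ery 1 to Ery 2 it went to 0.91 of its level in library 1 (0.81 to 1.03) and to 0.86 in library 2 (0.76 to 0.98), and Ery 3 lay below HPSC, Ery 1 and Ery 2 in each library. Ery 6 was 7.89-fold (5.61 to 11.3) and 12.1-fold (8.56 to 17.6) lower than HPSC. Per cell, Tdg was higher in Ery 1 than in HPSC, with 1.55 against 0.92 UMIs in library 1 and 1.45 against 0.75 in library 2, and the step from Ery 1 to Ery 2 was down, to 0.57 (0.51 to 0.64) and 0.63 (0.56 to 0.72).

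Gadd45a (chr6:67035096-67037457, minus strand), which encodes a small stress-induced protein without known catalytic activity that interacts with repair and cell cycle proteins, went the other way from all 7 enzyme genes. In library 1 it was at 33.3 CPM in HPSC and at 53.2, 116, 213, 400 and 521 CPM in Ery 1 to Ery 5, and reached 1398 CPM in Ery 6. In library 2 it was at 21.8 CPM in HPSC and at 34.7, 81.1, 121, 178 and 223 CPM in Ery 1 to Ery 5, and reached 544 CPM in Ery 6. No neighbouring populations overlapped, and every one of the 6 steps was up in both libraries, in CPM and without hemoglobin.

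Ery 6 was 41.9-fold above HPSC in Gadd45a CPM in library 1 (34.9 to 50.9) and 25.01-fold above in library 2 (19.7 to 32.3). The libraries differed in the level itself. Without hemoglobin the difference between them was smaller, at 3336 and 2532 CPM in Ery 6 against 33.9 and 22.4 CPM in HPSC. The largest single step in CPM was the last, from Ery 5 to Ery 6, at 2.69-fold (2.54 to 2.84) and 2.44-fold (2.30 to 2.60) in CPM, though in library 2 its interval overlapped that of the step from Ery 1 to Ery 2 (2.05 to 2.68). Per cell the first step, from HPSC to Ery 1, had the highest ratio, at 2.59 (2.12 to 3.201) and 2.74 (2.11 to 3.62), against 2.14 (2.02 to 2.26) and 2.07 (1.95 to 2.20) for the last. Ery 1 cells were deeper than HPSC cells, and in CPM that first step was 1.59-fold in both libraries.

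The increase was spread over the cells rather than carried by a few. The mean was 0.54 and 0.33 Gadd45a UMIs per HPSC cell and 6.54 and 4.59 per Ery 6 cell, although an Ery 6 cell had fewer UMIs in all. The median was 0 in HPSC and 5 and 4 in Ery 6, where the 10th percentile was 1 UMI in both libraries and the 90th was 13 and 9. After thinning to 3600 UMIs, 9.16% and 6.35% of HPSC cells and 94.6% and 78.2% of Ery 6 cells held a Gadd45a UMI (unthinned, 29.1% and 17.3% against 96.7% and 93.5%). Per cell, the step from Ery 2 to Ery 3 was the only one of the 6 not called up in both libraries.

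**Figure D3:**
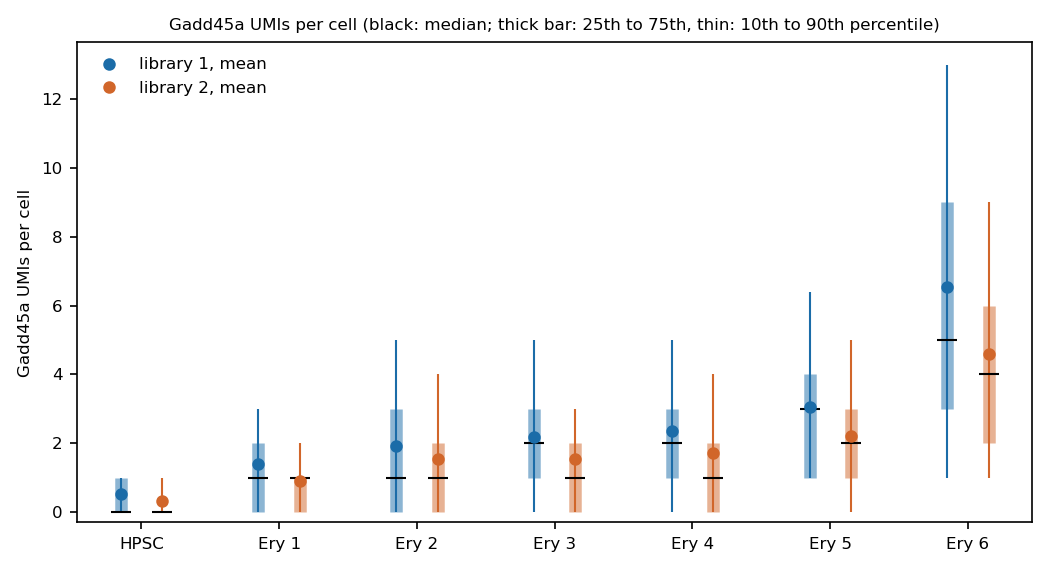
Gadd45a UMIs per cell are plotted from HPSC to Ery 6 for library 1 (blue) and library 2 (orange), with a point for the mean, a black dash for the median, a thick bar from the 25th to the 75th percentile and a thin line from the 10th to the 90th. The median is 0 in HPSC and 5 and 4 in Ery 6, and the thin lines of Ery 6 begin at 1 UMI.

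Free RNA in the droplets bears on the low end of this comparison. In barcodes of 1 to 50 UMIs, taken as free RNA, Gadd45a had 383 CPM (library 1) and 262 CPM (library 2), above its level in HPSC and below its level in Ery 6. If all hemoglobin UMIs in HPSC were free RNA, free RNA would make up at most 7.62% and 7.48% of the UMIs of HPSC, and it would bring 29.2 of the 33.3 CPM and 19.6 of the 21.8 CPM of Gadd45a found there. At that limit the fold differences of Ery 6 to HPSC would be larger than those given. Single HPSC cells held up to 16 and 11 Gadd45a UMIs. For Dnmt3b the same shares would bring 0.85 of 173 CPM and 0.69 of 156 CPM in HPSC. The same hemoglobin limit was 75.4% and 72.6% of the UMIs in Ery 3, and 100% in Ery 4 and Ery 5 of both libraries. The part of free RNA in the Gadd45a levels of Ery 1 to Ery 5 was not tested.

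At the other end, the few UMIs of the enzyme genes in Ery 6 can be set against free RNA too. If all Dnmt3b UMIs of Ery 6 were free RNA, free RNA would make up 9.46% of the UMIs of Ery 6 in library 1 and 4.40% in library 2, from 6 and 4 UMIs. It would then bring 6.18 of the 17.9 CPM of Dnmt1 and 2.13 of the 7.47 CPM, 1.25 of the 3.86 CPM and 0.45 of the 2.42 CPM of Tet3, and 3.69 of the 7.20 CPM and 1.41 of the 4.14 CPM of Tdg. Part of the Dnmt1, Tet3 and Tdg UMIs of Ery 6 would remain under that assumption. It would bring 36.2 of the 1398 CPM and 11.5 of the 544 CPM of Gadd45a. No interval was carried over from the 6 and 4 UMIs. The hemoglobin limit used for HPSC was 100% in Ery 6 in both libraries, so it set no limit on Dnmt1, Tet3 or Tdg there.

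Within Ery 6, the cells were also put in order of their hemoglobin share of UMIs and split into 3 equally large groups per library, a division added after the values above had been seen. Gadd45a UMIs per cell were 5.88, 7.21 and 6.52 in library 1 and 4.35, 4.99 and 4.41 in library 2, from the group with the least hemoglobin to the group with the most. The per cell level was thus highest in the middle group in both libraries. Without hemoglobin the CPM were 2377, 3718 and 4449 in library 1 and 1796, 2910 and 3409 in library 2, where a larger hemoglobin share leaves fewer other UMIs to divide by.

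Shares within an enzyme family do not depend on how much hemoglobin a cell holds. Dnmt1 made up 27.0% of Dnmt1, Dnmt3a and Dnmt3b UMIs in HPSC in library 1 (24.4% to 29.8%) and 26.6% in library 2 (23.8% to 29.7%). In both libraries together the share was 61.8% in Ery 1, 88.3% in Ery 2, 97.4% in Ery 3 and 98.7% in Ery 4, so that maintenance transcripts went from the minority to nearly all of the methyltransferase UMIs. In Ery 6 it was 91.1% (84.2% to 95.6%) and 94.9% (87.4% to 98.6%).

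Between the de novo genes, Dnmt3b made up 76.4% of the UMIs of the pair in HPSC in library 1 (73.3% to 79.3%) and 74.9% in library 2 (71.4% to 78.2%). The share was 65.2% (60.5% to 69.8%) and 66.3% (61.2% to 71.1%) in Ery 1, below HPSC in both libraries. From Ery 3 on, at most 17 UMIs of the pair were left in any subcluster of a library, too few for a share to be read. In Mk it was 33.9% (25.7% to 42.8%) and 36.5% (26.9% to 46.9%), and Dnmt3a was the more frequent transcript there. Among the TET genes, Tet3 made up 56.6% (48.1% to 64.9%) and 60.9% (52.1% to 69.2%) in HPSC and 88.0% (68.8% to 97.5%) and 96.0% (79.6% to 99.9%) in Ery 6, where only 25 TET UMIs were left in each library.

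Since DNMT1 works behind the replication fork, Dnmt1 was compared with replication genes. Within HPSC and each Ery subcluster the cells were divided at the median share of their UMIs from 18 S phase genes, such as Mcm2 to Mcm7, Rrm1, Rrm2 and Tyms, which left out Dnmt1, Uhrf1 and Pcna. Uhrf1, which brings DNMT1 to new DNA, was higher without hemoglobin in the group with more S phase transcripts from HPSC to Ery 5 in both libraries, by 1.99-fold (1.61 to 2.48) and 2.21-fold (1.72 to 2.86) in HPSC and by 3.70-fold (3.14 to 4.38) and 2.51-fold (2.13 to 2.96) in Ery 4. In Ery 6 its intervals included 1.

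Dnmt1 did not keep to that pattern in the middle of the course. It was higher in the group with more S phase transcripts in HPSC, by 1.45-fold (1.14 to 1.85) and 1.71-fold (1.30 to 2.26), in Ery 4, by 1.29-fold (1.09 to 1.53) and 1.22-fold (1.02 to 1.46), and in Ery 5, by 1.91-fold (1.34 to 2.75) and 2.47-fold (1.76 to 3.51). In Ery 1 the ratios were 0.82 (0.70 to 0.96) and 0.94 (0.80 to 1.11), in Ery 2 they were 1.03 (0.87 to 1.21) and 0.84 (0.69 to 1.01), and in Ery 3 they were 0.97 (0.83 to 1.12) and 0.99 (0.83 to 1.18). In Ery 6 they were 1.23 (0.82 to 1.87) and 1.81 (1.09 to 3.07). From Ery 1 to Ery 3 Uhrf1 was between 1.32-fold and 1.58-fold higher. The S phase genes themselves, summed without hemoglobin, were at 2431 and 2340 CPM in HPSC, highest in Ery 3 at 6695 and 6186 CPM, and at 1509 and 1507 CPM in Ery 6. Gadd45a was lower in the group with more S phase transcripts in Ery 4, at 0.76 (0.71 to 0.81) and 0.70 (0.64 to 0.77), in Ery 5, at 0.88 (0.79 to 0.97) and 0.79 (0.71 to 0.88), and in Ery 6, at 0.67 (0.64 to 0.70) and 0.61 (0.58 to 0.65). Before Ery 4 it was not lower in both libraries: the ratios were 0.99 (0.68 to 1.46) and 0.68 (0.41 to 1.13) in HPSC, 1.04 and 1.01 in Ery 1, 1.16 (1.02 to 1.31) and 1.14 (0.98 to 1.33) in Ery 2, and 0.95 and 0.97 in Ery 3, with intervals that included 1 in all of these but Ery 2 of library 1. The groups also differed in depth, with medians of 5515 and 6276 UMIs in Ery 4 in library 1 and 8200 and 10466 in library 2. Nor were they matched for hemoglobin share, and within Ery 6 Gadd45a without hemoglobin was higher where that share was larger. The part of depth or hemoglobin share in the ratios was not tested. Per cell, Dnmt1 in Ery 4 was at 0.46 against 0.37 UMIs in library 1 and 0.43 against 0.42 in library 2. In Ery 3 it was at 0.86 against 1.06 and 0.76 against 0.90, while in HPSC and Ery 5 it was higher per cell too. The median Ery 6 cell held 2 S phase UMIs in each library, against 21 and 24 in Ery 4. The Ery 6 groups thus rest on few S phase counts, which the intervals do not cover.

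**Figure D4:**
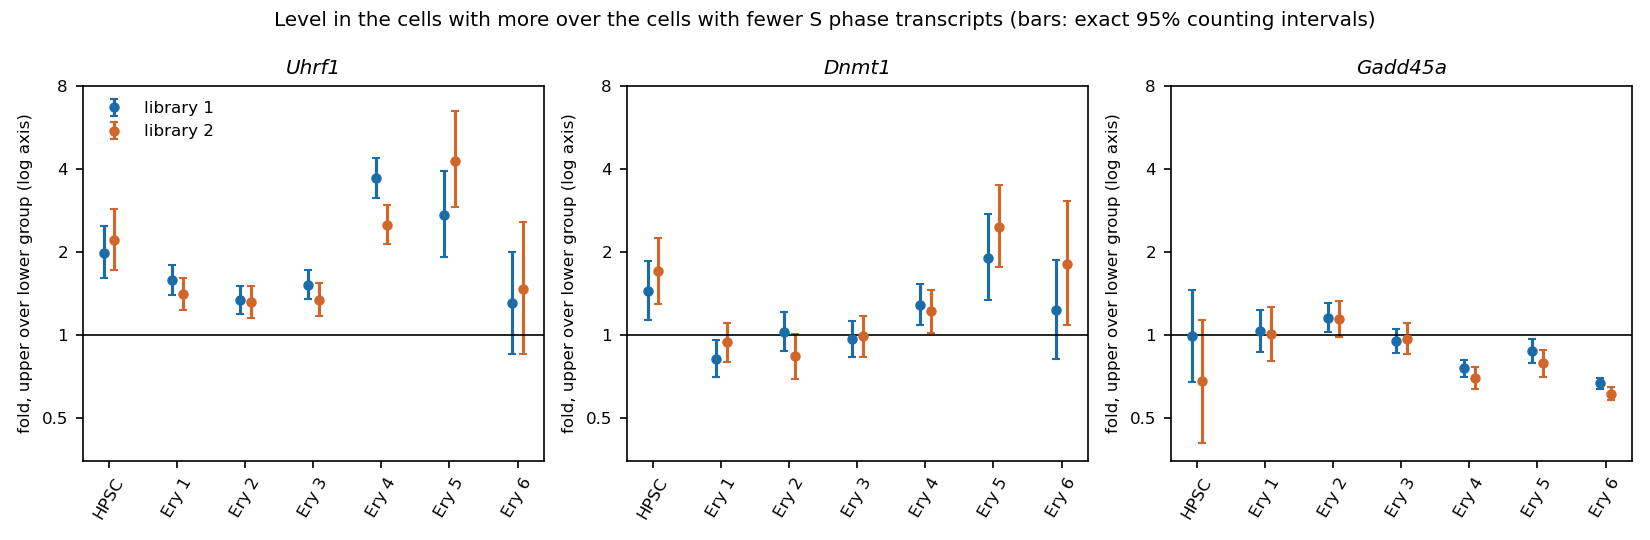
The ratio of CPM without hemoglobin in the cells with more S phase transcripts to that in the cells with fewer (log axis, line at 1) is plotted from HPSC to Ery 6 for Uhrf1, Dnmt1 and Gadd45a in library 1 (blue) and library 2 (orange), with bars for the exact 95% counting interval. Uhrf1 lies above 1 from HPSC to Ery 5, Dnmt1 lies above 1 in HPSC, Ery 4 and Ery 5 in both libraries, and Gadd45a lies below 1 from Ery 4 to Ery 6.

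Outside the definitive erythroid course, Dnmt3b was highest in HPSC, and its next levels were those of Mk, at 55.8 CPM (40.4 to 75.2) and 34.5 CPM (24.0 to 48.0). G followed at 20.6 and 29.5 CPM, and Mo/KC, Hepa, EC and EryP lay at 14.7 CPM or less. Mk and G overlapped in library 2. Dnmt3a had a different order, with Mk at 109 CPM (87.0 to 135) in library 1, above the 53.3 CPM (45.9 to 61.6) of HPSC, and at 60.1 CPM (46.0 to 77.3) in library 2, where it overlapped HPSC. The Mk cells of library 1 were shallow, with a median of 5699 UMIs against 16944.5 in library 2. Hepa held Dnmt3a at 40.6 and 23.5 CPM with few Dnmt3b UMIs, 2 and 7.

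Tet2 was highest in the myeloid cells, but in a different cell type in each library, with G at 18.0 CPM (12.4 to 25.1) in library 1 and Mo/KC at 16.9 CPM (9.48 to 27.9) in library 2. The intervals of G and Mo/KC overlapped each other in both libraries, and those of Mo/KC overlapped that of HPSC. Tet3 was highest in EC, at 49.6 CPM (26.4 to 84.8) from 13 UMIs and 35.3 CPM (21.6 to 54.5) from 20 UMIs, which overlapped HPSC and Mk. Among HPSC, G, Mo/KC, Mk, Hepa and EC, Dnmt1 ranged from 42.7 to 83.8 CPM and Tdg from 23.6 to 56.8 CPM over both libraries.

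The primitive erythroblasts were on the same side of HPSC as Ery 6 in each of the 8 genes. EryP held Dnmt1 at 6.26 and 2.07 CPM, Tdg at 5.22 and 1.04 CPM, Tet3 at 4.17 and 1.04 CPM, no Tet1 or Tet2 UMI, and Dnmt3a and Dnmt3b at 1.04 CPM or less. Gadd45a was at 226 CPM (197 to 259) and 127 CPM (106 to 152) in EryP, below Ery 6 but above HPSC. Hemoglobin was 76.7% and 82.5% of the UMIs of EryP. In the other cell types Gadd45a was at 177 and 44.4 CPM in Mk and 142 and 63.3 CPM in G, so that library 1 was higher in each, and free RNA at 383 and 262 CPM was above all of these.

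**Figure D5:**
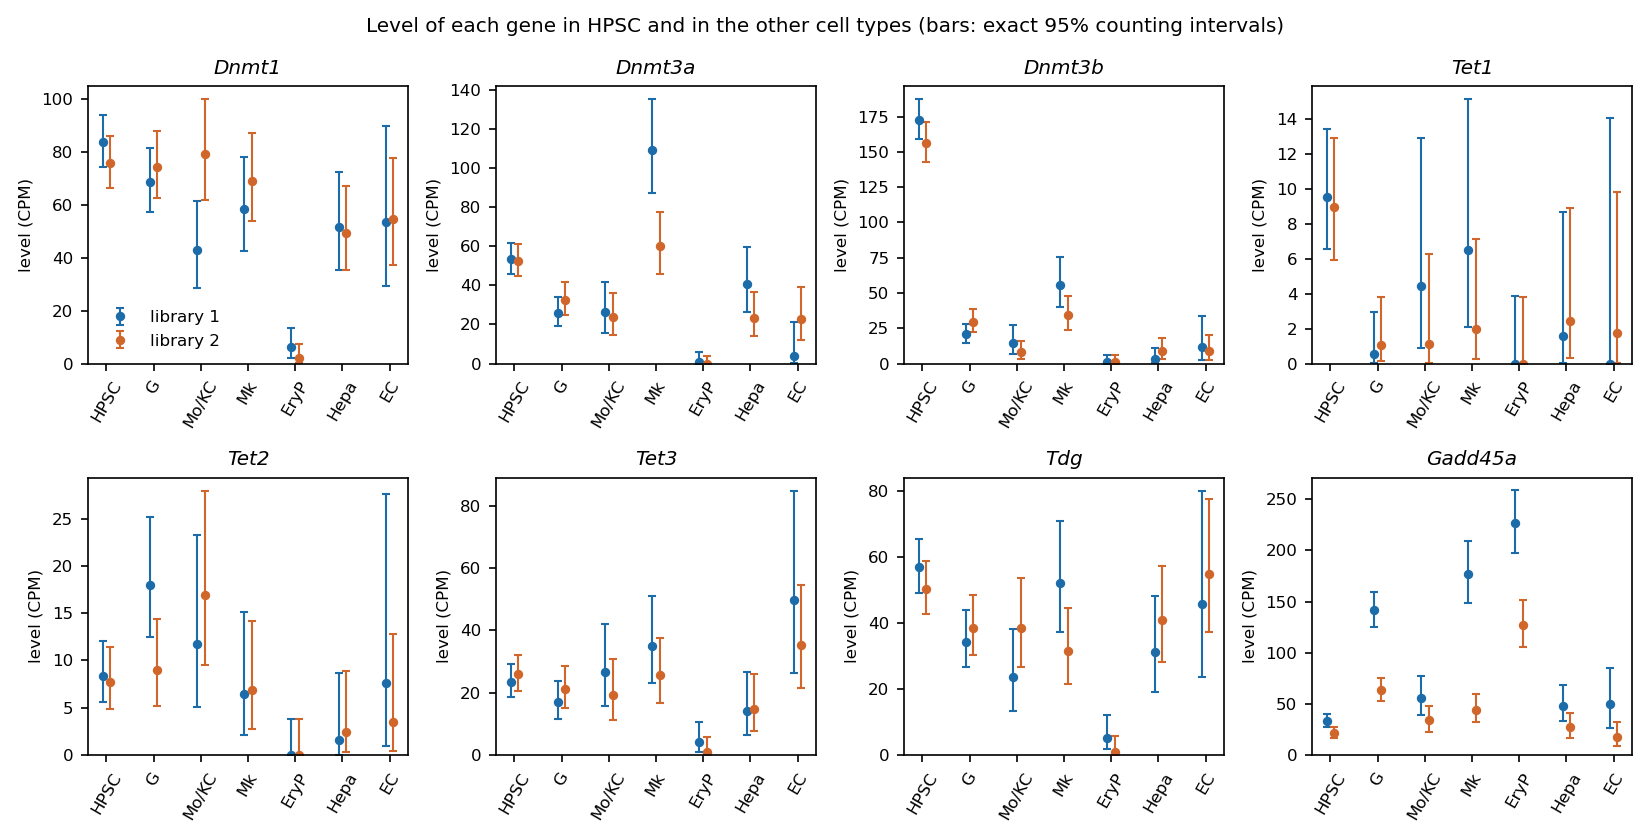
CPM of each gene (vertical axes, each with its own scale from 0) is plotted in HPSC and in G, Mo/KC, Mk, EryP, Hepa and EC for library 1 (blue) and library 2 (orange), with bars for the exact 95% counting interval. Dnmt3b is highest in HPSC, Dnmt3a is high in Mk, Tet3 in EC, and Gadd45a in EryP at 226 and 127 CPM.

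The genes that work beside these enzymes were described by lists of 41 genes in all, read against the same background, in which 77.1% of all genes tested were lower in CPM and 54.7% without hemoglobin. With so few genes a list, none of the counts below is read as a difference from those shares. Of 6 maintenance partners tested, 5 were lower in Ery 6 in CPM and 4 without hemoglobin. The lymphoid-specific helicase Hells went from 94.2 to 1.58 CPM in library 1, and library 2 had 92.2 and 1.92 CPM, and its activator Cdca7 from 166 to 1.76 CPM and from 169 to 1.92 CPM, while Uhrf1 went from 115 to 17.2 CPM and from 99.2 to 6.26 CPM. Uhrf1 was 6.65-fold and 15.9-fold lower, and Hells and Cdca7 were between 48.1-fold and 94.7-fold lower. Usp7, which encodes a deubiquitinase bound to DNMT1, stood at 38.3 and 37.2 CPM in HPSC and Ery 6 of library 1 and at 30.7 and 18.4 CPM in those of library 2, and was the list's only gene called higher without hemoglobin.

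Of 7 base excision repair genes tested, all 7 were lower in CPM and 5 without hemoglobin (77.1% and 54.7% of all genes). Apex1, the main abasic site endonuclease gene, went from 347 to 10.2 CPM and from 321 to 3.23 CPM, and Ung, a uracil glycosylase gene, from 124 to 3.16 CPM and from 111 to 1.72 CPM. Polb and Lig3 were the members that no longer passed without hemoglobin. Of 6 genes of methyl-CpG binding and related proteins tested, 5 were lower in CPM and 3 without hemoglobin (again beside 77.1% and 54.7%), among them Mbd3 at 226 to 11.8 CPM and 218 to 5.75 CPM and by Zbtb38, from 35 and 37 UMIs in HPSC to 1 and 0 in Ery 6.

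Of 9 genes that supply methyl groups or the TET cofactor, 8 were lower in CPM and 6 without hemoglobin, where 77.1% and 54.7% of all genes were. Idh2, whose enzyme makes the 2-oxoglutarate that TET enzymes use, went from 446 to 5.97 CPM and from 395 to 2.22 CPM, and Ahcy, whose enzyme clears the product of methylation, from 84.1 to 1.23 CPM and from 31.4 to 0.61 CPM. Mat2b, a regulatory subunit of the methyl donor synthase, stood at 78.0 and 73.8 CPM in HPSC and Ery 6 of library 1 and at 68.8 and 38.1 CPM in those of library 2. Without hemoglobin Mat2b was called higher. Of 3 TET partners tested, Cxxc5 went from 88.7 to 0.35 CPM and from 69.4 to 0.10 CPM, Hcfc1 was lower in CPM only, and Ogt was called higher without hemoglobin only. Dnmt3l, Cxxc4 and Wt1 had no UMI in HPSC or Ery 6.

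Of the other Gadd45 genes, Gadd45g went from 18 UMIs in HPSC to 71 in Ery 6 in library 1, a CPM ratio of 2.39 (1.41 to 4.26), and from 17 to 69 UMIs in library 2, a ratio of 1.28 (0.74 to 2.32). It was called higher without hemoglobin only. Gadd45b had 10 and 12 UMIs in HPSC and 2 in Ery 6 in each library, too few to be tested. In the same Ery 6 cells Gadd45a had 7960 and 5392 UMIs.

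The genes closest to each member in pattern were found by Pearson r of log2(mean CPM + 10) over 13 populations, among 9356 genes with at least 200 UMIs, as a description of populations that share libraries and a hemoglobin gradient. For Gadd45a they included Chac2 (r = 0.951), Mkrn1 (0.944), Ncoa4 (0.943) and Mylk3 (0.942). For Dnmt1 they were Smc1a (0.987), Cdk2 (0.976), Atad2 (0.975), Dpp8 (0.974) and H2afz (0.974), and for Dnmt3b they were Cacna1a (0.952), Smad3 (0.944), Runx3 (0.944), Kctd1 (0.943) and Fam69b (0.937). Those for Dnmt3a included Slc50a1 (0.964) and Abi2 (0.963), for Tet2 Birc3 (0.987) and Man2b1 (0.987), for Tet3 Apc (0.978) and Nrbp1 (0.978), and for Tdg Rnps1 (0.993) and Wbscr22 (0.992). Among the 8 genes themselves, r was 0.89 between Dnmt3b and Tet1, 0.83 between Dnmt3a and Dnmt3b, 0.83 between Dnmt1 and Tdg, and -0.81 between Gadd45a and Tdg. Tet1 had fewer than 200 UMIs over all cells, most of them in HPSC, so its r with Dnmt3b leans on that population.

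Genes overlapping the members could take or give reads where the counting did not use strand, which is not stated. Those counted in the files, Dnmt3aos, Dnmt3bos, Gm42567 in Tet2 and Glt8d2 beside Tdg, had at most 1 UMI in HPSC or Ery 6 of a library. A Tdg pseudogene was not among the rows, so reads it shares with Tdg cannot be told apart.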

How the data were processed

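Per the labels, the authors processed the reads with bcl2fastq 2, Cell Ranger 2.1.1, the mm10 genome and Seurat 3.2.0 (the header of library 1 names software 3.0.0) and deposited counts of UMIs per gene and barcode for each library, with a table of cell labels. Cell types and subclusters were taken from that deposited table, and libraries from the ending of each cell name. The UMI totals recomputed for all 5480 cells of library 1 matched the table. No doublet caller was run. Per the labels, doublets were sorted out before capture, which leaves those formed in droplets.

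UMI counts were summed per population and library with Python 3.11.15, numpy 2.4.6, pandas 2.3.3 and scipy 1.17.1. Intervals were exact Poisson for CPM, exact conditional binomial for ratios and Clopper-Pearson for shares, all at 95%, and 3 counts stood in for 0 in each library's 2-fold calls and folds of HPSC to Ery 6. Ratios of steps and S phase groups kept a 0, as did log2 ratios of the mean of both libraries, unless both were at 0. They cover counting error only, as 1 liver gives no replicate animals and no p-value. A step was called where the interval lay on the same side of 1 in both libraries. Thinned shares are exact expectations at 3600 UMIs per cell. The ratio intervals and the 2-fold call from HPSC to Ery 6, and the thinning, were tested on simulated data. Alternatives were each library left out, CPM without 10 hemoglobin genes, UMIs per cell, stricter cells, free RNA taken away, summed libraries, and other minimum counts and depths.

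Members and gene lists were chosen with earlier results of these data known, and the search of windows at listed starts, the division of Ery 6 by hemoglobin and the Dnmt3b limit on free RNA were added after seeing values. All 8 members, the lists' called genes and the 5 most similar genes of each member with at least 200 UMIs (not Tet1) were eligible for naming. Some of the similar genes are not reported here. Windows at listed starts (12 for 8 genes) are from RefSeq and gene positions from GENCODE, both GRCm38.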

Additional observations from a re-analysis of the deposited data

How the results depend on the processing

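No direction was reversed for any of the 8 genes by any alternative run. No paired analysis was possible because the libraries are technical replicates of 1 liver; each library's own folds are already within a library. Without hemoglobin the log2 ratios of Ery 6 to HPSC were -1.08 (Dnmt1), -6.01 (Dnmt3a), -6.26 (Dnmt3b), -3.86 (Tet1), -5.30 (Tet2), -1.30 (Tet3), -1.59 (Tdg) and 6.70 (Gadd45a), and per cell they were -4.09, -8.97, -9.27, -6.86, -8.26, -4.32, -4.61 and 3.68, in the same order. Both scales move all genes together, by their construction, and the values of Dnmt3a and Tet2 keep the 0 of library 2. In cells with at least 1000 genes and under 10% mitochondrial UMIs, which leaves 177 and 134 Ery 6 cells, Tdg was at -2.08, and Tet1 and Tet2, with 3 counts in place of none in Ery 6, at -3.19 and -2.99. With 10% of UMIs taken away as free RNA, Dnmt3a was at -8.08, Dnmt3b at -9.73, Tet2 at -5.28, Tet3 at -3.57, Tdg at -4.56 and Gadd45a at 11.01. There the UMIs of Gadd45a in HPSC, and of Dnmt3a, Dnmt3b and Tet2 in Ery 6, ran out, and 3 counts over both libraries stood in for them. Those 4 values are thus set by that floor. Leaving out a library gave -7.44 to -6.25 for Dnmt3a and -5.58 to -4.66 for Tet2, where library 2 held 0 UMIs of either in Ery 6 and 3 counts stood in.

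The number of genes called higher was 1257 without hemoglobin and 515 to 785 with a library left out, against 501. The Dnmt3b share of the de novo pair in Ery 6 was 60% to 100% with a library left out, against 71.4% from 14 UMIs. Depth limits Dnmt3a, Dnmt3b, Tet1 and Tet2 in late cells most, and 1 liver gives no spread between animals.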
